A study of Mus musculus with 6 samples.

Results

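The genes described here build the nuclear pore complex or carry cargo through it. They were chosen by symbol: names beginning with Nup followed by a digit, Kpna, Kpnb, Ipo followed by a digit or Xpo followed by a digit, together with Ran, Rangap1, Ranbp1, Ranbp2, Seh1l, Ndc1, Cse1l, Tnpo1 and Tnpo3. Among 45037 probe sets (short sets of array probes, 1 signal each) and 18193 genes on the arrays, 129 probe sets and 47 genes met this rule. Tpr was also named in the rule and is not analysed here. The family was picked with the difference between the 2 groups of arrays in view, so its differences between the groups are given as a description and not as a test.

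Total RNA came from fetal mouse lungs at E18.5, near the end of gestation, with 1 array per animal. The labels give 3 animals the genotype Nfibf/f, called control-labelled here, and 3 the genotype Nfibf/f, Dermo1-Cre, called Cre-labelled. Both groups thus share the floxed Nfib gene, which encodes a transcription factor, and Cre is the labelled difference. Dermo1, also named Twist2, drives this Cre in mesenchymal cells. The comparison asks which transcripts differ in lungs where this Cre is meant to delete Nfib in mesenchyme. In whole lung RNA, fewer cells of a type and less RNA per cell cannot be told apart.

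The nuclear pore complex is a ring-shaped channel through the nuclear envelope, built of scaffold rings, membrane proteins, a cytoplasmic face, a nuclear basket and a central channel lined with phenylalanine-glycine repeats. Importins bring proteins with nuclear localisation signals in and exportins bring cargo out. The small GTPase Ran, bound to GTP in the nucleus and to GDP in the cytoplasm, gives transport its direction. Cells assemble new pores during interphase and after every mitosis, and several of these proteins also act at kinetochores and the spindle.

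Most of the 47 genes read slightly higher in Cre-labelled lungs. With each gene represented by its brightest probe set, 40 of 47 had a higher mean there, 39 of them by more than 0.10 on the log2 scale, and 7 had a lower one. The median log2 difference, Cre-labelled minus control-labelled, was 0.28, a 1.22-fold difference, against -0.01 over all 18193 genes, of which 48.9% had a higher mean. The quartiles of the members were 0.15 and 0.33, closer together than those of all genes, -0.27 and 0.22. All genes include many dim ones. Over the 12826 genes with enough signal to be fitted, the quartiles were -0.21 and 0.17. The members were also brighter on average than all genes, and the part of signal level in their spread was not tested. The largest difference was that of Ndc1, 0.76, and the lowest that of Ranbp2, -0.26.

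The differences were small against the threshold used for single probe sets, a Benjamini-Hochberg adjusted p of 0.05 in a limma fit over 27022 probe sets. Of the members, 45 genes and 105 probe sets had enough signal to be fitted, and 24 probe sets were too dim. Past the threshold were 2 of the 105 probe sets, 1 of Ndc1 and 1 of Xpo1, both higher in Cre-labelled lungs; over all fitted probe sets 3.56% passed, 1.41% as higher and 2.16% as lower. Leaving out any 1 of 4 arrays (replicates 2 and 3 of the controls, replicates 1 and 3 of the Cre-labelled lungs) ended both calls, with 0 of 105 passing, and so did the cardiac muscle mean as a covariate or a fit with no intensity trend. Counted by the brightest probe set of each gene, Ndc1 alone passed, 1 of 45, where 4.96% of all fitted genes passed, 1.92% as higher and 3.04% as lower. None of the 45 passed as lower, and 0 were lower at an unadjusted p under 0.05 (12.8% of all fitted genes), while 26 were higher at that level (10.7%). On 29 of the 45 genes every Cre-labelled array read above every control-labelled array, an ordering that 15.3% of all fitted genes showed; no fitted member gene showed the opposite one, which 16.5% of genes did. Counted by probe set, 56 of 105 had this ordering and 0 the opposite one, against 13.3% and 12.8% of all. These shares describe a set that was picked on the same contrast.

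**Figure D1:**
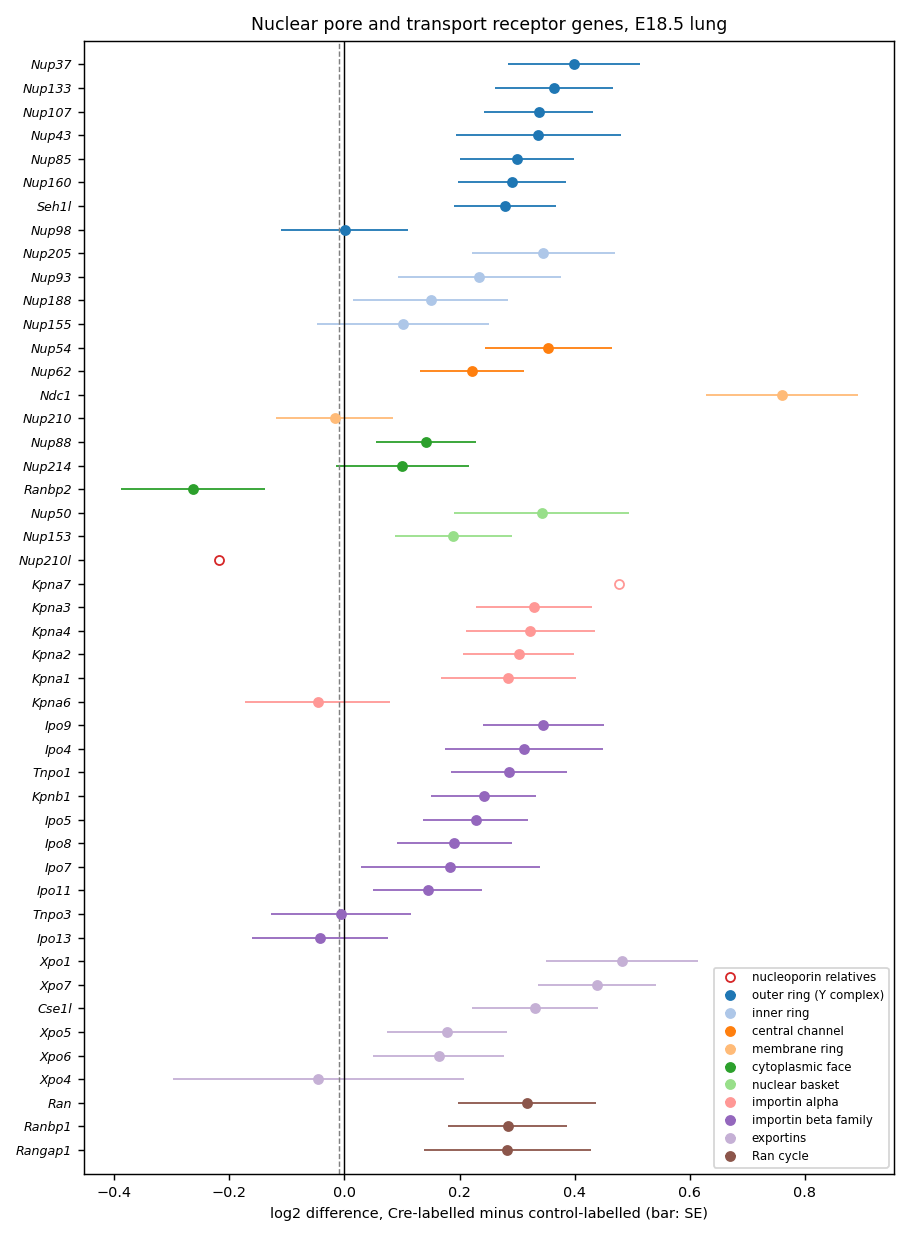
Log2 difference (Cre-labelled minus control-labelled, 3 arrays each) of the brightest probe set of each of the 47 genes, coloured by role, with the standard error of the fit as bars; open circles are the 2 genes below the signal filter, and the dashed line is the median of all genes, -0.01. Most points lie between 0.1 and 0.4, Ndc1 stands highest at 0.76 and Ranbp2 lowest at -0.26.

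**Figure D2:**
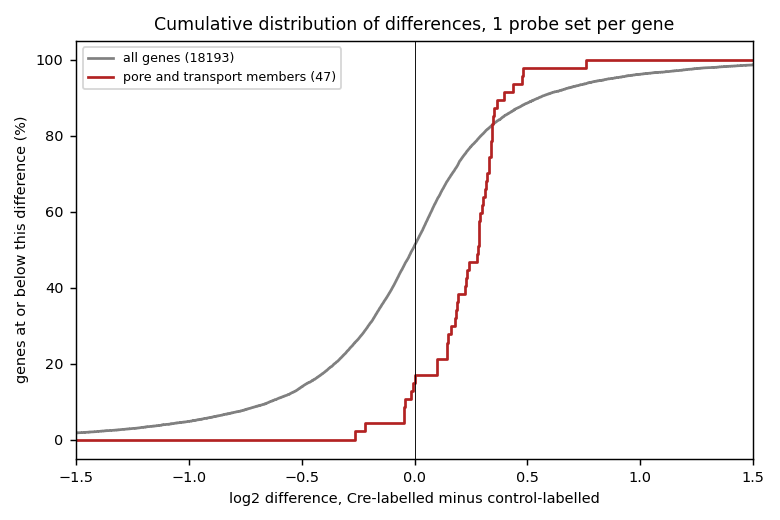
Cumulative share of genes (%) at or below a given log2 difference, for all 18193 genes (grey) and the 47 pore and transport genes (red), 1 probe set per gene. The red curve rises steeply around 0.28, whereas the grey curve is centred on -0.01 and has long tails on both sides. The grey curve includes genes too dim to be fitted.

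Array by array, the mean over the 47 genes was 8.48, 8.44 and 8.42 on control-labelled replicates 1, 2 and 3, and 8.74, 8.64 and 8.65 on Cre-labelled replicates 1, 2 and 3. All 3 Cre-labelled arrays lay above the control-labelled ones, and Cre-labelled replicate 1 was the highest. Relative to each gene's control-labelled mean, 43, 40 and 38 of the 47 genes read higher on Cre-labelled replicates 1, 2 and 3. Control-labelled replicate 3 held the lowest control value of 27 genes, and without it the median difference was 0.22, the smallest of the 6 medians obtained by leaving out 1 array (the largest was 0.27). The mean over all genes was 5.93 to 5.97 on control-labelled and 5.89 to 5.97 on Cre-labelled arrays and did not separate the groups.

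**Figure D3:**
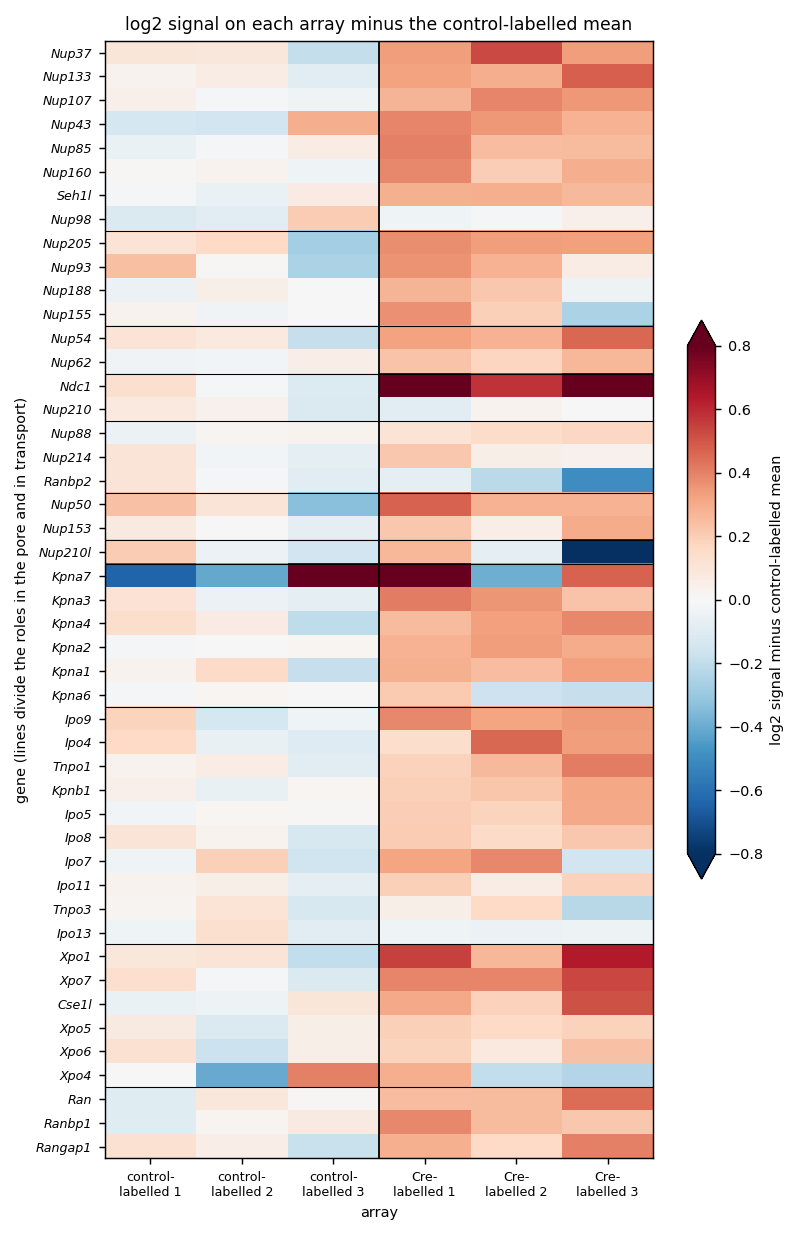
Log2 signal of each gene on each of the 6 arrays minus its control-labelled mean, by role (lines divide the roles in the order of the plot of differences); red is higher and blue lower, with colours capped at 0.8. The Cre-labelled columns are red for most genes, and blue cells there include those of Ranbp2, Kpna6 and Xpo4 and of the dim genes Nup210l and Kpna7.

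Other features of the arrays bear on these values. Probe sets of Nfib itself did not show a loss: 5 of 6 fitted ones passed as higher in Cre-labelled lungs, by 2.05- to 2.20-fold. Since no source used here places the probes relative to the floxed part, they do not check the labels. Markers of lung epithelium (9 genes, means of 9.29 to 10.24 over the 6 arrays) and mesenchyme (8 genes, 10.70 to 10.86) were present on every array. Cardiac muscle genes differed between arrays of the same group, with means over 12 genes of 7.40 to 9.19 on control-labelled and 6.27 to 7.74 on Cre-labelled arrays; all 12 had a lower mean in Cre-labelled lungs. Skeletal muscle genes stood out on control-labelled replicate 1, at a mean of 8.11 over 8 genes against 3.67 to 4.78 on the other 5 arrays. The 3′ minus 5′ signal of the Actb control probes was 0.35 to 0.52 on control-labelled arrays and 0.41, 0.44 and 0.83 on Cre-labelled replicates 1, 2 and 3. That of Gapdh was -0.16, -0.20 and -0.05 on the controls against -0.34, -0.32 and 0.07, so Cre-labelled replicate 3 was the highest for both genes and the other Cre-labelled arrays lay below all controls for Gapdh only. The median difference of the pore and transport genes was 0.27 without control-labelled replicate 1, 0.26 without Cre-labelled replicate 3 and 0.28 with the cardiac mean as a covariate. With that covariate 0 member probe sets passed, against 2 without it. Over all probe sets 279 passed with it and 963 without it, and how many were the same was not counted.

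Promoter sequences of the family are described as well. Genes with higher and with lower means were not set apart, so a link of motifs to the differences was not tested. RefSeq promoters (GRCm38.p6, 250 bases before to 50 after the start, 1 per gene) were found for 37 of the 47 genes; those of Cse1l, Kpna1, Kpna3, Kpna6, Nup210l, Nup43, Nup85, Seh1l, Xpo4 and Xpo7 were not used here. The 4 shown are those of Ndc1 and Xpo1, which hold the probe sets past the threshold, and of Ran and Kpna2, the brightest genes of the Ran cycle and the importin alphas; each is the 250 bases before the start, 5′ to 3′ in the direction of the gene.
Ndc1 (chr4:107367797-107368046, plus strand): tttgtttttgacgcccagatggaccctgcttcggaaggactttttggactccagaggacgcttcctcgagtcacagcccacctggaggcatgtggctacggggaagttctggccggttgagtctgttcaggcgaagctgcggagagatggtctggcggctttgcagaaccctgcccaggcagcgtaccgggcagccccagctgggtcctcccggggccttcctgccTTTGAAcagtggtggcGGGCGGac
Xpo1 (chr11:23255791-23256040, plus strand): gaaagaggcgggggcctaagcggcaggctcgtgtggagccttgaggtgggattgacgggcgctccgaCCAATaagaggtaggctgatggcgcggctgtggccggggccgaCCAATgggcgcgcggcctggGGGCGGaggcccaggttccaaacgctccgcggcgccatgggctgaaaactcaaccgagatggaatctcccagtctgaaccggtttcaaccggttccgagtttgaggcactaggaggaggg
Ran (chr5:129019906-129020155, plus strand): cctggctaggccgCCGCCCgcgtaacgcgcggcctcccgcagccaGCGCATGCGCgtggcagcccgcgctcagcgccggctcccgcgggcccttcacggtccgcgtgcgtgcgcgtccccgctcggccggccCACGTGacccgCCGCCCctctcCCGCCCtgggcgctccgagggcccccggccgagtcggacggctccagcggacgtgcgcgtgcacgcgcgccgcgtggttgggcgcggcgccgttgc
Kpna2 (chr11:106999526-106999775, minus strand): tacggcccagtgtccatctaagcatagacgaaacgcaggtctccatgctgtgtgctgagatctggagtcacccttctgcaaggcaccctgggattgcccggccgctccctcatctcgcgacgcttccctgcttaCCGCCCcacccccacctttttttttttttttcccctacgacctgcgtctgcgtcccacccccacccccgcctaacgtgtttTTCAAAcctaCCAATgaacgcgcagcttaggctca
Capitals mark exact matches, on either strand, to the GC box GGGCGG, the CCAAT box, the ETS motif CCGGAAG, the palindromic nuclear respiratory factor 1 motif, the E2F motifs TTTCCCGC and TTTGGCGC, the cell cycle homology region TTTGAA, the TATA box TATAAA and the E-box CACGTG. No motif in this set contains another.

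All 4 hold a GC box, the Ran promoter 3 of them beside a nuclear respiratory factor 1 motif and an E-box, and Xpo1 and Kpna2 hold CCAAT boxes. Kpna2 and Ndc1 also hold the cell cycle homology region. Over the full 300 bases, 26 of the 37 member promoters (70.3%) contained the GC box, against 35.9% of 27025 promoters and 46.3% of the 17492 promoters of protein-coding genes. The nuclear respiratory factor 1 motif was in 5 of 37 (13.5%; 0.977% of all and 1.32% of protein-coding genes): Nup107, Nup50, Nup62, Ran and Xpo5. The CCAAT box was in 19 (51.4%, against 37.9% of all and 39.0% of protein-coding genes). In the same order, the E-box was in 7 (18.9%, against 7.24% and 7.90%) and the ETS motif in 6 (16.2%, against 9.12% and 11.9%). The cell cycle homology region was in 9 (24.3%, against 18.1% and 16.5%). The first E2F motif was in 2, Nup210 and Ranbp1 (5.41%, against 1.11% and 1.46%), and the second in none of 37 (0.537% and 0.657%). The TATA box was in 3 (8.11%, against 14.2% and 13.3%). Member promoters were also richer in G and C, with a median of 64.3% against 56.3% in protein-coding genes, and held a median of 28 CpG dinucleotides against 13. The part of this composition in the motif shares was not tested, and a match describes the sequence only.

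All 8 genes of the outer ring, or Y complex, which coats both faces of the pore, had a mean at or above the controls. Their median log2 difference was 0.32, 7 of them lay between 0.28 and 0.40, and all 19 fitted probe sets had higher means. Seh1l, a beta-propeller protein that also serves in nutrient signalling to mTORC1, was the brightest. It read 9.04, 8.995 and 9.11 on the control-labelled arrays and 9.33, 9.34 and 9.31 on the Cre-labelled ones, without overlap (log2 difference 0.28 ± 0.09 SE). Nup37 had the largest difference of the ring, 0.40 ± 0.11 SE, or 1.32-fold, followed by Nup133 (0.36 ± 0.10 SE), Nup107 (0.34 ± 0.09 SE) and Nup43 (0.34 ± 0.14 SE). Nup85 and Nup160 had 0.30 ± 0.10 SE and 0.29 ± 0.09 SE. Of these 7 only Nup43 overlapped between the groups, as control-labelled replicate 3, at 7.56, lay above Cre-labelled replicate 3, at 7.55.

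Nup98 stood apart from them. Its transcript encodes both the Y complex protein Nup96 and Nup98, a repeat-bearing protein of the pore's faces, made by cleavage of a common precursor. Both group means of its brightest probe set were 8.92, with an SD (n = 3) of 0.18 for the controls and 0.04 for the Cre-labelled arrays, and the sign changed in 6 of 17 alternative analyses, scalings included. A dimmer Nup98 probe set had a log2 difference of 0.23 ± 0.15 SE.

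The inner ring holds the pore to the curved membrane. Its 4 genes had higher means, from 0.10 for Nup155 to 0.35 for Nup205. Nup205, a large solenoid scaffold protein and the brightest of them, read 9.20, 9.25 and 8.82 on control-labelled and 9.46, 9.43 and 9.42 on Cre-labelled arrays. The Cre-labelled arrays lay close together and above all controls, of which replicate 3 was low (difference 0.35 ± 0.12 SE, and 0.21 without that array). Nup93 (0.23 ± 0.14 SE), Nup188 (0.15 ± 0.13 SE) and Nup155 (0.10 ± 0.15 SE) overlapped between the groups, and on Cre-labelled replicate 3 Nup155 read 8.29, below all 3 controls (8.52 to 8.58).

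Central channel proteins form the barrier that receptors pass. Nup62, its best known component, read 9.93, 9.94 and 10.02 on control-labelled and 10.19, 10.13 and 10.23 on Cre-labelled arrays. The groups did not overlap, and the difference was 0.22 ± 0.09 SE beside an SD of 0.05 in either group. Its partner Nup54 had a difference of 0.35 ± 0.11 SE. All 5 fitted Nup62 probe sets had higher means, as did 3 of 4 of Nup54. The brightest probe sets of both genes have names ending in x_at, which marks probes that can also bind other transcripts.

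Of the membrane proteins that anchor the pore, Ndc1 had the largest difference of all 47 genes and Nup210 had almost none. Ndc1, a multi-pass protein required for pore assembly, read 7.03, 6.89 and 6.80 on control-labelled and 7.78, 7.48 and 7.72 on Cre-labelled arrays. The groups were apart, at 6.90 ± 0.12 and 7.66 ± 0.16 (SD, n = 3 each), and the fold was 1.69 (0.76 ± 0.13 SE). Both dimmer Ndc1 probe sets were likewise without overlap, at 0.79 ± 0.23 SE and 0.50 ± 0.16 SE. Nup210, a glycoprotein with a large domain in the lumen of the envelope, known for its induction in muscle and neural differentiation, read 8.33, 8.28 and 8.14 on the controls against 8.16, 8.28 and 8.25 on the Cre-labelled arrays. Its groups overlapped (-0.02 ± 0.10 SE), and its sign changed in 6 of 17 alternative analyses, median scaling included.

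At the cytoplasmic face, where messenger RNA leaves and exported complexes are taken apart, the 3 genes had a median of 0.10. Ranbp2, a giant filament protein that binds Ran and acts as a SUMO ligase, had the lowest difference of all members. Its brightest probe set read 10.45, 10.33 and 10.26 on control-labelled and 10.28, 10.13 and 9.85 on Cre-labelled arrays, with overlap at the margin and a difference of -0.26 ± 0.13 SE. It was -0.15 without Cre-labelled replicate 3 and -0.03 as the mean of all Ranbp2 probe sets. The 4 fitted Ranbp2 probe sets disagreed: the next brightest was higher without overlap (0.14 ± 0.09 SE), and the dim pair read 0.31 ± 0.37 SE and -0.31 ± 0.36 SE. Nup88 and Nup214, which form a subcomplex there, had 0.14 ± 0.09 SE and 0.10 ± 0.12 SE; Nup88 was without overlap, with SDs of 0.04 and 0.03.

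At the nuclear basket, Nup153, which docks import complexes and tethers chromatin, read 9.68, 9.61 and 9.54 on control-labelled and 9.83, 9.66 and 9.91 on Cre-labelled arrays. Cre-labelled replicate 2 fell within the control range (0.19 ± 0.10 SE). Nup50, a mobile basket protein that helps release import cargo, had 0.34 ± 0.15 SE for its brightest probe set and 0.02 ± 0.13 SE and -0.10 ± 0.34 SE for the others. Nup210l, a relative of Nup210 known from testis, was too dim to be fitted, at 2.11, 1.86 and 1.75 on control-labelled and 2.18, 1.84 and 1.06 on Cre-labelled arrays.

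**Figure D4:**
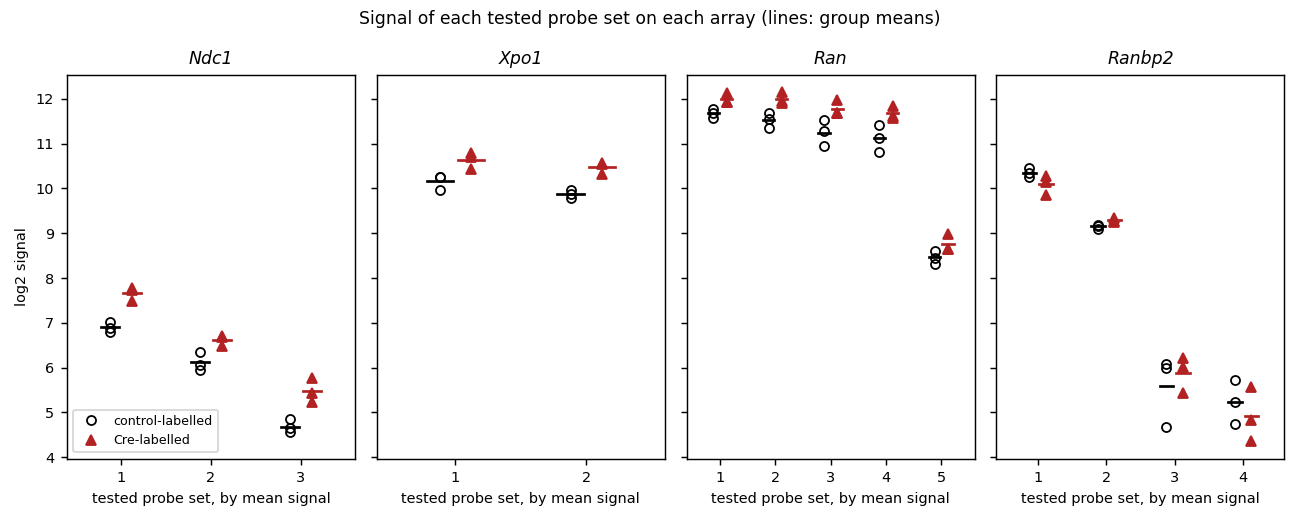
Log2 signal of every fitted probe set of Ndc1, Xpo1, Ran and Ranbp2 on each array (open circles control-labelled, red triangles Cre-labelled, lines the means of 3 arrays), ordered by mean signal. The groups are apart in all probe sets of Ndc1, Xpo1 and Ran, whereas Ranbp2 has 2 probe sets with a higher and 2 with a lower Cre-labelled mean.

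Import adaptors of the importin alpha family bind classical localisation signals and pair with importin beta. Kpna2, the form known to be abundant in dividing cells, had the tightest replicates of all members. It read 10.93, 10.95 and 10.96 on control-labelled and 11.23, 11.28 and 11.25 on Cre-labelled arrays. The gap of 0.30 ± 0.10 SE, or 1.23-fold, compares with SDs of 0.01 and 0.03. The brightest probe sets of Kpna3 (0.33 ± 0.10 SE), Kpna4 (0.32 ± 0.11 SE) and Kpna1 (0.28 ± 0.12 SE) were also without overlap. Dimmer fitted probe sets varied, at 0.45 ± 0.16 SE and 0.003 ± 0.19 SE for Kpna3. Those of Kpna1 had 0.17 ± 0.12 SE, 0.02 ± 0.27 SE and -0.11 ± 0.13 SE. Kpna6 read 8.09, 8.12 and 8.11 on the controls against 8.32, 7.95 and 7.92 on the Cre-labelled arrays. Its Cre-labelled arrays fell on both sides of the controls (-0.05 ± 0.13 SE). Kpna7, known from oocytes and early embryos, was too dim to be fitted, at 2.27 to 3.96 on control-labelled and 2.52 to 4.27 on Cre-labelled arrays.

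Importin beta and its relatives carry cargo through the channel directly. Kpnb1, the partner of the alphas, had a difference of 0.24 ± 0.09 SE for its brightest probe set and 0.35 ± 0.12 SE and 0.44 ± 0.13 SE for the 2 others fitted, all without overlap. Ipo5, an importer of ribosomal proteins and histones, was the brightest. It read 10.04, 10.08 and 10.07 on control-labelled and 10.26, 10.24 and 10.37 on Cre-labelled arrays, apart by 0.23 ± 0.09 SE. Ipo9, which imports histones and actin, had 0.35 ± 0.11 SE, and its 3 probe sets lay between 0.33 and 0.42, all without overlap. Tnpo1, the receptor of many RNA-binding proteins, had 0.29 ± 0.10 SE.

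Smaller or less even differences were found in the rest of this family. Ipo4, also an importer of ribosomal proteins and histones, had 0.31 ± 0.14 SE with overlap, and Ipo8 and Ipo11 had 0.19 ± 0.10 SE and 0.14 ± 0.09 SE without. Ipo7, another importer of ribosomal proteins, had 0.18 ± 0.16 SE for its brightest probe set, with Cre-labelled replicate 3 inside the control range, and 0.68 ± 0.20 SE for a dim one. Tnpo3, the receptor of SR splicing factors, had -0.01 ± 0.12 SE, and its 3 probe sets lay between -0.04 and -0.01; under median scaling its sign turned. Ipo13, which carries cargo both ways, read 7.25, 7.41 and 7.19 on control-labelled and 7.25, 7.24 and 7.24 on Cre-labelled arrays. Its Cre-labelled values lay inside the control range (-0.04 ± 0.12 SE).

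Among the exportins, Xpo1 differed most. Xpo1, also called CRM1, carries out proteins with leucine-rich export signals, ribosomal subunits and some RNAs. Its brightest probe set read 10.25, 10.26 and 9.96 on control-labelled and 10.71, 10.42 and 10.79 on Cre-labelled arrays, without overlap and 1.40-fold apart (0.48 ± 0.13 SE). The second, the probe set past the threshold, read 9.96, 9.80 and 9.88 against 10.55, 10.32 and 10.57 (0.60 ± 0.11 SE), with a clear gap between the groups. The remaining probe set was too dim to be fitted.

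Cse1l, which returns importin alpha to the cytoplasm, had 0.33 ± 0.11 SE, and Xpo7, an exportin with broad cargo, had 0.44 ± 0.10 SE for the brightest of its 3 fitted probe sets, the second largest exportin difference. Both were without overlap, though a dimmer Xpo7 probe set overlapped (0.16 ± 0.15 SE). Xpo5, the exporter of microRNA precursors, had 0.18 ± 0.10 SE and Xpo6, the exporter of actin, 0.16 ± 0.11 SE. Xpo4 read 5.71, 5.30 and 6.11 on control-labelled and 5.997, 5.51 and 5.48 on Cre-labelled arrays. Its replicates spread over more than its difference of -0.05 ± 0.25 SE.

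All 3 genes of the Ran cycle had higher means without overlap. Ran itself read 11.57, 11.76 and 11.68 on control-labelled and 11.92, 11.93 and 12.12 on Cre-labelled arrays. The difference of this brightest probe set was 0.32 ± 0.12 SE, and over its 5 fitted probe sets, all without overlap, it lay between 0.30 and 0.56; most of these are x_at probe sets as well. Ranbp1, which helps release Ran from receptors in the cytoplasm, had 0.28 ± 0.10 SE. Rangap1, which makes Ran hydrolyse GTP, had 0.28 ± 0.15 SE for the brightest probe set but -0.15 ± 0.15 SE and -0.13 ± 0.25 SE for the others.

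Where a gene had several fitted probe sets, they mostly pointed the same way. Of 32 such genes, 22 had higher means in all of them, 1 (Tnpo3) had lower means in all and 9 were mixed. The mixed genes were Ipo11, Ipo8, Kpna1, Kpna6, Nup50, Nup54, Ranbp2, Rangap1 and Xpo4.

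Genes of the same machinery outside the naming rule were read in the same fit. Of 8 other pore genes all had higher means and 0 passed in limma (3 were higher and 0 lower at an unadjusted p under 0.05), with a median of 0.22. Nupl1, another central channel protein, now called Nup58, had 0.44 ± 0.13 SE (limma adjusted p = 0.093), and Ahctf1, which seeds pores on chromatin after mitosis, had 0.26 ± 0.10 SE (adjusted p = 0.17). Of 7 other transport receptors and Ran factors 6 had higher means and 0 passed (0 at an unadjusted p under 0.05), with a median of 0.18; the Ran exchange factor gene Rcc1 had 0.24 ± 0.16 SE. Of 12 genes of messenger RNA export 10 had higher means and 0 passed (3 higher and 1 lower at an unadjusted p under 0.05); the adaptor gene Alyref had 0.57 ± 0.15 SE (limma adjusted p = 0.068) and Pcid2 -0.50 ± 0.17 SE (adjusted p = 0.15). Of 3 SUMO pathway genes 0 passed (0 at an unadjusted p under 0.05), with a median of -0.07.

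Of 12 genes of the lamina and envelope, 1 passed, as higher: Tmpo, which encodes the lamina-associated LAP2 proteins, at 0.45 ± 0.10 SE (limma adjusted p = 0.049). In 5 of 16 alternative fits Tmpo passed as well (limma adjusted p 0.031 to 0.16). Lmnb1, the lamin B1 gene, had 0.51 ± 0.13 SE (limma adjusted p = 0.064), and Syne2, which links the envelope to the cytoskeleton, -0.41 ± 0.10 SE (adjusted p = 0.053). The list's median was 0.10.

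Cell cycle genes differed in the same direction as the pore and transport genes. All 37 on the list had higher means in Cre-labelled lungs, with a median of 0.52. Of all fitted genes 48.5% had a higher mean. In the fit of all 6 arrays 22 of the 37 passed as higher (limma adjusted p 0.013 to 0.049), against 1.92% of all fitted genes. How many of the 37 passed in the alternative fits is not given here. The mean of the 37 genes was 8.69 to 8.91 on control-labelled and 9.25 to 9.38 on Cre-labelled arrays. On both lists Cre-labelled replicate 1 was highest and control-labelled replicate 3 lowest. The lists of messenger RNA export and of the lamina and envelope had the same highest and lowest arrays. Most lung epithelial genes differed the other way from the cell cycle genes, with 8 of 9 means lower and array means of 9.84 to 10.24 and 9.29 to 9.51. Past the threshold as lower were 2 of the 9, against 3.04% of all fitted genes. Epcam was higher without overlap (0.32 ± 0.12 SE), and Sftpc differed little (-0.07 ± 0.30 SE). Array means of 5 endothelial genes (10.19 to 10.30 and 9.76 to 10.05) and 5 immune genes (8.79 to 9.06 and 8.37 to 8.53) were lower too. Of the endothelial genes 4 were lower and Tek was higher without overlap (0.10 ± 0.09 SE), and 0 passed. All 5 immune genes had lower means, and 2 of them passed as lower, against 3.04% of all fitted genes. Array means of the mesenchymal genes overlapped between the groups (10.70 to 10.79 and 10.75 to 10.86). The part of dividing cells or of cell makeup in the values of the pore and transport genes was not tested.

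**Figure D5:**
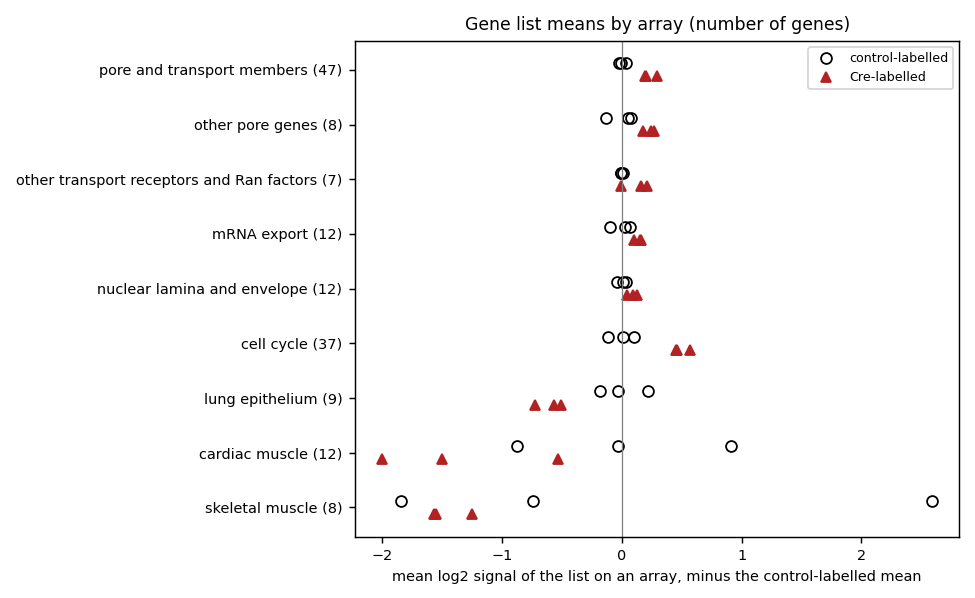
Mean log2 signal of each gene list on each array minus its control-labelled mean (open circles control-labelled, red triangles Cre-labelled; the number of genes is in brackets). The 47 pore and transport genes lie above all control-labelled arrays on every Cre-labelled array, and the cell cycle list lies higher. The cardiac muscle list spreads widely within both groups. The skeletal muscle list spreads widely only among the control-labelled arrays, where replicate 1 stands apart.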

How the data were processed

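Signals of 6 fetal mouse lungs (3 per group) on Affymetrix arrays were used as deposited: log2 values that the authors made with MAS5 and affy, per the submitters' processing notes, which name no versions. Raised to the power of 2, each array had a mean of about 150.0 after trimming 2% at each end; other scaling steps were not stated. Between 4.93% and 6.50% of values per array lay below 0.

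Of 45101 probe sets, 64 controls were left out; 34945 had 1 gene symbol, 932 several and 9160 none. Those whose mean reached the 40th percentile (4.00) entered limma's linear model (version 3.58.1, R 4.3.3; eBayes with trend, two-sided, no covariates, Benjamini-Hochberg adjustment over 27022 probe sets). The brightest probe set stood for a gene. The labels call the animals biological replicates. Their number limits precision, as arrays carry no counts. The fit was tested on simulated data.

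The members and lists were chosen with earlier results of these data known. All members are named; values on every array are given for called genes, the brightest of each role, the 5 lowest, genes with opposing called probe sets (0 found), and the called probe set of Xpo1, added after its values were seen. Other lists give up to 3 genes with the smallest unadjusted p. Tpr is not analysed here. Alternatives were quantile and median scaling, offsets of 1 and 64, other filters, no trend, array weights, replicate block, cardiac covariate, each array left out, other thresholds and averaging a gene's probe sets. Plots used matplotlib 3.10.9.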

Additional observations from a re-analysis of the deposited data

How the results depend on the processing

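The direction of the family as a whole held in every alternative run: between 38 and 43 of 47 genes had a higher Cre-labelled mean. The median log2 difference, 0.28, was 0.22 with an offset of 64, 0.24 with array weights, 0.21 with the mean of all probe sets of a gene (dim ones included), and 0.22 to 0.27 without 1 array. Of the 40 higher genes, 34 stayed higher in all 17 alternatives. The runs that leave the differences unchanged are counted in each figure given out of 17. Of the genes given in full, Xpo4, Nup210, Kpna6, Ipo13 and Nup210l, none of them called, changed sign in at least 1 of them; the cause was not tested. With that mean over all probe sets, Ipo5 had 0.08 in place of 0.23, Seh1l 0.12 in place of 0.28, Nup153 0.29 in place of 0.19 and Xpo1, whose dim probe set enters, 0.94 in place of 0.48. Nup153 had 0.30 with the cardiac score.

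The counts of calls were not stable. Both called probe sets (Ndc1 and Xpo1) passed in 10 of 16 alternative fits, in 2 of the 6 without 1 array, those without control-labelled replicate 1 or Cre-labelled replicate 2. Of member probe sets, 5 passed with quantile normalization (with Ran and Xpo7 added), 14 at an adjusted p of 0.10, 0 without an intensity trend, 0 with the cardiac score, and 0 to 2 without 1 array. Of member genes, 3 passed with quantile normalization, 2 with an offset of 64, 2 with a filter at the 60th percentile, 4 with only the fitted probe sets averaged per gene (Ndc1, Xpo1, Ipo7 and Nup107), 6 at an adjusted p of 0.10, 0 without a trend or with the cardiac score, and 0 to 1 without 1 array. No alternative called a member as lower. Over all probe sets 963 passed, against 1270 with quantile normalization, 1126 with an offset of 64, 1199 with a filter at the 60th percentile, 171 without a trend, 279 with the cardiac score, 2120 at an adjusted p of 0.10 and 314 to 495 without 1 array. The replicate block, with correlations of -0.01, 0.20 and 0.14 between same-numbered arrays and 3 of 6 arrays correlating best with their own number, called 1309 probe sets and the same count of 2 among the members; the numbers are not taken as pairs. Signal limits Kpna7, Nup210l and 24 probe sets.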
